A study of Mus musculus with 8 samples.

Results

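The transcriptional response of IgMG follicular B cells to antigen was taken from 4 of 8 arrays: the 2 arrays of IgMG cells stimulated with hen egg lysozyme (HEL) were compared with the 2 arrays of IgMG cells left unstimulated, over every probe set of the array other than the control probe sets. Both groups are mouse follicular (FO) B cells, the recirculating B cells that fill the follicles of spleen and lymph node, and all carried a B cell receptor (BCR) specific for HEL. IgMG is a chimeric receptor. It keeps the rest of the IgM heavy chain but has the membrane-proximal spacer outside the cell, the membrane-spanning segment and the cytoplasmic tail of IgG1. The other 4 arrays of the study hold FO B cells with the unmodified anti-HEL IgM, 2 unstimulated and 2 with HEL, and serve here for the spread of the measurements and for 1 comparison of the responses. Every array was made from sorted cells pooled over mice: 5 and 6 mice in 2 sorts each for the unstimulated IgMG arrays, 8 mice in 3 sorts and 6 mice in 2 sorts for the IgMG arrays with HEL, and 2 or 4 mice for the IgM arrays. The sources used here give no dose of HEL, no length of stimulation, no mouse strain and no ages. The titles number the arrays of a group as experiments 1 and 2, and below the value of the first array is always given before that of the second.

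The BCR is a membrane immunoglobulin that binds antigen, paired with Cd79a and Cd79b, which carry the signal inward. Antigen binding activates the kinases Lyn, Syk and Btk, and through them calcium and NFAT, the Ras and ERK kinases, PI3 kinase and NF-kB. Within the first hours a resting B cell switches on immediate-early transcription factors, then feedback regulators, chemokines and costimulatory molecules, and later the machinery for growth, while genes of the quiescent state are turned down. The cytoplasmic tail of IgM is very short, whereas that of IgG1 is longer and conserved, and the study set the chimera beside IgM to ask what the IgG segments change in the genes that antigen induces.

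The start-site regions of 6 genes that rose are shown as examples, picked since each holds the letters of a motif searched in all promoters. They cover 250 bases before and 50 bases from the start site on, are written 5′ to 3′ on the strand of the gene, and come from RefSeq on GRCm38.p6. Capitals mark the match: a CArG box (the site of serum response factor) in Egr2 (chr10:67537316-67537615, plus strand), the cyclic AMP response element (CRE) TGACGTCA and its core TGACGT, on either strand, in Plk2 (chr13:110394794-110395093, plus strand), the EGR word GCGNGGGCG, read on the other strand, in Nr4a1 (chr15:101266596-101266895, plus strand), the E-box CACGTG bound by Myc-type factors in Tsr1 (chr11:74897830-74898129, plus strand), and heat shock elements (GAA, TTC and GAA with 2 bases between neighbouring words) in Chordc1 (chr9:18292017-18292316, plus strand, 3 overlapping matches on both strands) and Hsph1 (chr5:149636287-149636586, minus strand).
Egr2: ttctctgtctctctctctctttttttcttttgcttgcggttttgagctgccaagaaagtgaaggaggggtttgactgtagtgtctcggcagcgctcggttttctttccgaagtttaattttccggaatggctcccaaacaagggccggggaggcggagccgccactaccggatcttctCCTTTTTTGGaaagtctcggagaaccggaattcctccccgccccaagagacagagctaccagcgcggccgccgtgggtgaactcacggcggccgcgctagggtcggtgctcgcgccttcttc
Plk2: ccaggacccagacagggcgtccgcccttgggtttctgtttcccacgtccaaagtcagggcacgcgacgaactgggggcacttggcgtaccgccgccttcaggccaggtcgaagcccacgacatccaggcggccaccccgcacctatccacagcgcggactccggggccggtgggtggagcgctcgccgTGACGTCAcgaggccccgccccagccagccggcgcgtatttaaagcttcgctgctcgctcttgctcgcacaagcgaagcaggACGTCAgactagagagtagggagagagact
Nr4a1: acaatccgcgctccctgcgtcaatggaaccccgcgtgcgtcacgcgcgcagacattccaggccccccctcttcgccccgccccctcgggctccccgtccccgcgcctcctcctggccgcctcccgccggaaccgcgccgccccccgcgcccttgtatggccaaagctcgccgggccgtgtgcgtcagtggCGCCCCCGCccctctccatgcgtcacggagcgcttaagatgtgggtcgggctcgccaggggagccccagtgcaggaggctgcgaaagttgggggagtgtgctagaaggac
Tsr1: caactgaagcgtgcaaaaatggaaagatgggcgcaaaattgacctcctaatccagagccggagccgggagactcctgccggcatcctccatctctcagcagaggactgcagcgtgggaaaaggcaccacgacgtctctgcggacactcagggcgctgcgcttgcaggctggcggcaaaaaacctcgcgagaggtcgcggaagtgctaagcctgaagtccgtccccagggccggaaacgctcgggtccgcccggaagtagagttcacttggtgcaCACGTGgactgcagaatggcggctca
Chordc1: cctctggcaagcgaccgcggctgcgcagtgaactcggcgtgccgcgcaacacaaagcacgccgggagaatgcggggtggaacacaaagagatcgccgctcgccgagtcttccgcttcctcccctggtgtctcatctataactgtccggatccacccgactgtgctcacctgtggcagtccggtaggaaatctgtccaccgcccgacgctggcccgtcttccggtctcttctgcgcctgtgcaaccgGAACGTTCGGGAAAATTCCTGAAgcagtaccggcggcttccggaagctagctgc
Hsph1: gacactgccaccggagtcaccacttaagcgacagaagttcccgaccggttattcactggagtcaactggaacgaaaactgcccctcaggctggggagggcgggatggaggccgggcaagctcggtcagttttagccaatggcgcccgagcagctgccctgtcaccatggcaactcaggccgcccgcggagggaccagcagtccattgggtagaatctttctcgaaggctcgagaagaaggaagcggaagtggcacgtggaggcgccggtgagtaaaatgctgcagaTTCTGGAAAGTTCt

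Both strands of every promoter window were searched, and a gene was counted if any of its windows held the letters. Of 195 genes that rose in IgMG cells by their brightest probe set, 157 had a window, as had 131 of 155 that fell and 4544 of 5602 tested. The E-box CACGTG stood in 30.6% of the promoters of genes that rose, in 10.7% of those of genes that fell and in 12.6% of those tested. The CRE core TGACGT stood in 27.4%, 9.92% and 14.1% of the same groups, and the full CRE, which contains the core, in 7.64%, 1.53% and 3.39%. Genes that rose thus held both words more often than genes that fell, as a description of these promoters with no test and with base composition left unmatched. The heat shock element stood in 3.18% of the promoters of genes that rose, 0% of those that fell and 0.528% of those tested, and 3 of the 4 heat shock chaperone genes that rose and had a window (Chordc1, Dnajb6 and Hsph1) held it. Smaller contrasts were seen for the EGR word (19.1%, 15.3% and 12.2%), the CArG box (2.55%, 3.82% and 1.72%), TATAAA (14%, 13% and 9.46%) and the NF-kB word, GGG and CC with 5 bases between (75.8%, 80.9% and 72.3%). Of all 32851 windows of the table, 7.15% held the E-box, 7.51% the CRE core, 1.79% the full CRE, 0.603% the heat shock element, 5.55% the EGR word, 1.63% the CArG box, 13.6% TATAAA and 50.8% the NF-kB word. The printed windows are examples and do not stand for their groups. Of 6 immediate-early genes that rose and had a window, only Egr2 held a CArG box. Of 9 genes with a window among the 15 largest rises, only Plk2 held the full CRE. Egr2 had 5 windows and Hsph1 2, of which 1 each is printed. A match shows the letters only, and not that a factor binds there.

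The arrays behind the comparison had been scaled to like brightness, with the same mean signal without the extremes, 149.96, on each. Their median signals were 41.5 to 47.75. Log2 signals correlated with r = 0.939 between the unstimulated IgMG arrays, 0.9715 between the IgMG arrays with HEL and 0.9196 to 0.9284 across these groups, across probe sets, which are not replicates of each other. The 13 B cell markers on the array, among them Ms4a1, Cd79a and Ighm, summed to between 48721 and 60114 on the IgMG arrays. The T cell receptor genes Cd3d, Cd3e and Cd3g lay between 1.4 and 16 on them. Of 13 T cell markers on the array only 4 were bright enough to be tested, Cd4, Lat, Zap70 and Ccl5, the last 2 being the brightest. Zap70 stood at 357, 329, 103 and 134 on the first and second unstimulated and the first and second HEL array. In the same order Ccl5 stood at 270, 1465, 444 and 362, and neither had a call. The second unstimulated IgMG array stood apart: all 13 natural killer (NK) cell markers and 19 of 30 myeloid markers were highest there among the IgMG arrays. NK markers summed to 452, 3331, 884 and 736 on the first and second unstimulated and the first and second HEL array, against 371 to 541 on the IgM arrays, and myeloid markers to 4831, 27194, 12950 and 10714, against 3410 to 8114. The Gapdh 5′/3′ ratio, a sign of RNA quality, was 0.237 and 0.395 without HEL and 0.221 and 0.14 with HEL, lower on both HEL arrays, and its part in the results below was not tested here. The same ratio of beta-actin overlapped between the groups (0.343 and 0.657 against 0.357 and 0.287). In bulk RNA of this kind, fewer cells of a type and less RNA per cell cannot be told apart. Whether replicates came from separate cell preparations throughout is not stated. The p-values of limma below therefore rest only on the spread between arrays of a group, pooled over all 8 arrays and moderated across probe sets. An exact permutation test of 2 against 2 arrays could not give a p below 0.333.

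With HEL, IgMG cells raised more genes strongly than they lowered. With the adjusted p of limma held to 0.05, 231 of 7453 probe sets rose (3.1%) and 171 fell (2.29%), 402 in either direction (5.39%), and 1662 had an unadjusted p under 0.05. The shares of 3.1% and 2.29% are the background for the list counts below. A single call in a short list is not set apart from them. The probe sets that rose had a median log2 change of 1.16, with quartiles of 0.92 and 1.53, and their median signal went from 216 to 558. Those that fell had a median of -1.0, with quartiles of -1.25 and -0.85, and went from a median signal of 373 to 157. At least 4-fold changes were found for 27 probe sets that rose and 1 that fell, and at least 2-fold changes for 156 and 86. Both HEL arrays lay above both unstimulated arrays for all 231 that rose, and below them for all 171 that fell. Over all probe sets tested these orders held for 23.7% and 29.4%. Arrays that stand apart therefore add nothing to a call. Over these called probe sets the median changes by experiment number were 1.16 and 1.17 for rises and -1.02 and -0.99 for falls. A call favours like sizes and the numbers do not pair the arrays, so these medians do not measure replication. Centring of each array on its median gave counts of 233 and 97, which moves the share of rises among the calls from 57.5% to 70.6%. The counts depended on single arrays: 68 rose and 25 fell when the first HEL array of IgMG cells was left out, 48 and 10 when the second was, and 183 and 108 or 212 and 138 when the first or the second unstimulated IgMG array was. Without the first or second unstimulated IgM array 102 or 98 fell. Of 115 genes past the threshold that the naming rule picked, 29 passed it with each of the 4 IgMG arrays left out in turn, 26 that rose and 3 that fell.

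**Figure D1:**
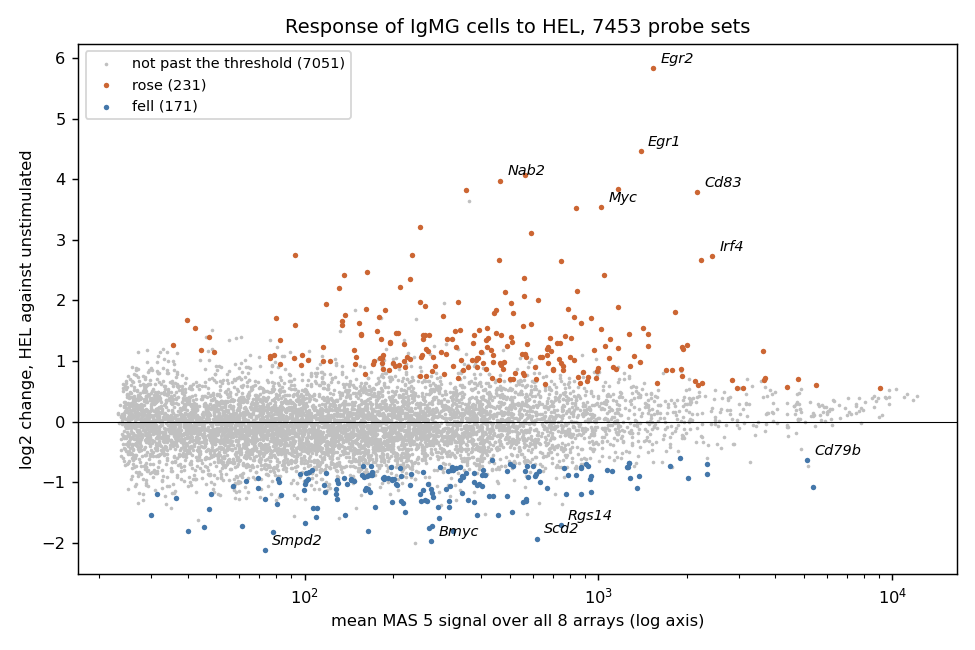
Each point is 1 of the 7453 probe sets tested: its mean signal over all 8 arrays on a log axis against its log2 change with HEL in IgMG cells. The 231 that rose (orange) reach a log2 change of 5.84 for Egr2, while the 171 that fell (blue) reach -2.12 for Smpd2, and grey points did not pass the threshold.

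The immediate-early transcription factors were the list with the largest share of rises. Of 19 tested, 11 rose and 0 fell, and their median log2 change was 1.57, against -0.05 over all probe sets tested. Egr2, a zinc finger factor induced through ERK and NFAT, had signals of 18.2 and 36.1 without HEL and 2505 and 2288 with HEL, a log2 change of 5.84 ± 0.24 (standard error of the fit, as in all values below; adjusted p = 1.75e-05). Egr1, its close relative, went from 78.7 and 114 to 2251 and 2619.5, a log2 change of 4.46 ± 0.28 (adjusted p = 1.07e-04). Across the alternative settings the log2 change of Egr1 ranged from 2.05 to 4.69. With each IgMG array left out in turn it was 4.23 to 4.69, so the low end came from another setting. Averaging over the probe sets of a gene was among those settings. Nab2, the corepressor that binds Egr proteins and restrains them, went from 30.1 and 37.9 to 750.4 and 784.5, a log2 change of 3.97 ± 0.20. In all 3 both HEL arrays stood far above both unstimulated arrays, so that the activators and their corepressor rose together.

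Nr4a1, an orphan nuclear receptor widely used as a reporter of antigen receptor signalling, had signals of 48.2 and 142 without HEL and 1601 and 1276 with HEL, a log2 change of 3.84 ± 0.35 (adjusted p = 7.41e-04). Bhlhe40, a repressor of the helix-loop-helix class, went from 24.5 and 59.9 to 922 and 904 (log2 change 4.07 ± 0.27). The second unstimulated array, the one with the high NK and myeloid markers, was the higher of its group for both, and it still lay far below both HEL arrays. Leaving out the first unstimulated array gave Nr4a1 a log2 change of 3.19, and leaving out the second gave 4.49. Crem, a factor of the cyclic AMP response, went from 38.1 and 20.6 to 388 and 409 (3.22 ± 0.26), and the growth regulator Myc from 95.4 and 136 to 1459 and 1537 (3.54 ± 0.22). The AP-1 subunits changed less: Fos had signals of 30.9, 70.5, 209 and 148 (log2 change 1.59 ± 0.33, adjusted p = 0.0291), and Junb of 189, 249, 733 and 628 (1.57 ± 0.22). Jund, an AP-1 subunit present in resting cells, had overlapping groups at 2062, 3727, 5430 and 3216 (0.59 ± 0.31, adjusted p = 0.301). Without the first or the second HEL array 8 of the 19 rose, among them Egr1, Egr2, Nab2, Nr4a1, Myc, Crem and Bhlhe40, while Fos (adjusted p = 0.168 and 0.132) and Junb (0.0704 and 0.058) did not pass.

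**Figure D2:**
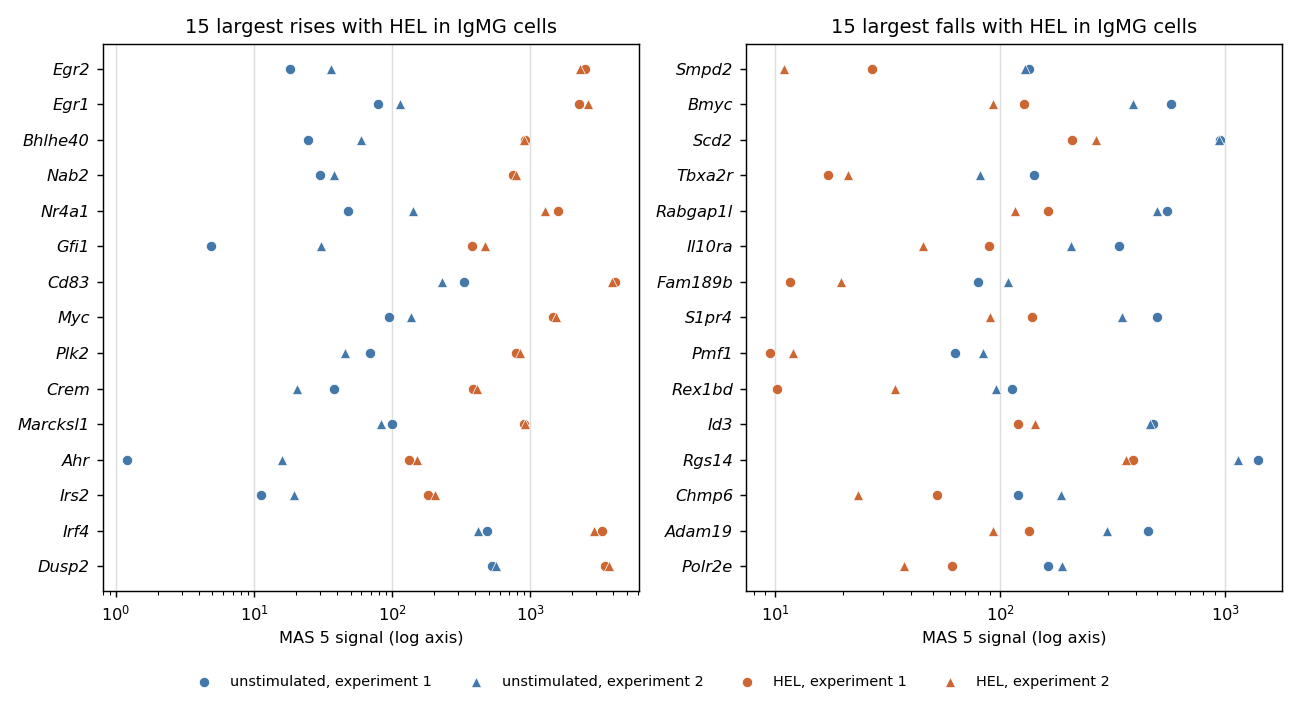
MAS 5 signals on a log axis of the 15 largest rises (left) and 15 largest falls (right) past the threshold with HEL in IgMG cells, 1 point per array, with circles for experiment 1 and triangles for experiment 2. The 30 genes were picked among those whose signals with HEL (orange) and without (blue) do not overlap. Egr2 goes from 18.2 and 36.1 to 2505 and 2288, and Scd2 from 947 and 939 to 208 and 268.

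In the receptor's own signalling chain 1 of 22 tested genes rose and 1 fell, 4.55% in each direction against 3.1% and 2.29% of all probe sets, with a median log2 change of -0.09. Blk, a Src-family kinase of B cells, had signals of 3013 and 2426 without HEL and 4586 and 4169.9 with HEL, a log2 change of 0.69 ± 0.14 (adjusted p = 0.0297; its other probe set was not past the threshold). Cd79b, the partner of Cd79a in the signalling pair, went from 6332 and 6452 to 4177 and 4055, a log2 change of -0.63 ± 0.14 (adjusted p = 0.0404), whereas Cd79a had overlapping groups (0.07 ± 0.17). With each IgMG array left out in turn, the log2 change was 0.54 to 0.85 for Blk and -0.65 to -0.61 for Cd79b. Both calls were lost when single arrays were left out, and that of Cd79b also with median centring. The kinase genes Syk (-0.59 ± 0.18, adjusted p = 0.0986) and Btk (-0.37 ± 0.20) did not pass. Ighm, the heavy chain, had overlapping groups at 8807, 12483, 14836 and 12044, and where its probes lie relative to the exchanged segments is not known here.

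Genes that restrain the signal moved in both directions. Of 16 inhibitory coreceptors and phosphatases 2 rose and 0 fell. Ptpn22, a tyrosine phosphatase that dampens antigen receptor kinases, had signals of 431 and 742 without HEL and 1735 and 1296 with HEL (log2 change 1.38 ± 0.25, adjusted p = 0.0183), and Cd5, a negative coreceptor, went from 5.6 and 15.8 to 54.9 and 51.0 (1.39 ± 0.29, adjusted p = 0.0281). Both pairs of arrays were apart, with Cd5 near the dim end of the array, and neither gene passed without either HEL array. Across the alternative settings the log2 change of Ptpn22 ranged from 0.59 to 1.76. Of 14 feedback genes of MAP kinases and G proteins 3 rose and 1 fell. Dusp2, a nuclear phosphatase of MAP kinases, went from 532 and 568 to 3499 and 3699 (2.67 ± 0.22), and Gem, a small GTPase that limits calcium channels, from 43.2 and 51.2 to 306 on both arrays (2.35 ± 0.21). These 2 passed without either HEL array. Rgs2 and Rgs14 both switch off G proteins and went in opposite directions: Rgs2 from 116 and 257 to 608 and 718 (1.84 ± 0.31), and Rgs14 from 1401 and 1146 to 388 and 363 (-1.71 ± 0.26, adjusted p = 0.00908). Without the first and the second HEL array their adjusted p-values were 0.0801 and 0.146 for Rgs2 and 0.0704 and 0.108 for Rgs14.

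Downstream of calcium, Nfatc1, the NFAT factor that induces its own transcription, had signals of 183 and 148 without HEL and 1081 and 1158 with HEL, a log2 change of 2.65 ± 0.18 (adjusted p = 1.15e-04). It was the 1 riser among 16 genes of calcium and NFAT signalling, whose falls numbered 0, and it passed with any IgMG array left out. The NF-kB list of 18 genes had 1 rise and 1 fall (5.56% each, against 3.1% and 2.29% of all probe sets). Its median was -0.05, the same as over all probe sets. Nfkbiz, an atypical nuclear inhibitor-family protein, went from 107 and 134 to 507 and 382 (1.75 ± 0.30, adjusted p = 0.0159). Traf5, an adaptor of CD40 and related receptors, went from 852 and 868 to 367 and 300.4 (-1.33 ± 0.27, adjusted p = 0.026). Neither passed without either HEL array, and Nfkbia, the main inhibitor, had signals of 1202, 1352, 1636 and 1386 (0.24 ± 0.16, adjusted p = 0.432).

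Secreted factors split. Of 16 tested, 3 rose and 3 fell. Ccl4 and Ccl3, chemokines that draw T cells towards activated B cells, had signals of 23.7 and 18.1 against 205 and 228 (2.66 ± 0.28), and of 18.6 and 49.1 against 114 and 121 (1.49 ± 0.32, adjusted p = 0.0342). Tnf went from 53.4 and 74.2 to 192 and 201 (1.42 ± 0.23). In the other direction Il16, a lymphocyte chemoattractant, went from 798 and 653 to 241 and 236 (-1.54 ± 0.22, adjusted p = 0.00703), and Il12a, a subunit of interleukin 12 and 35, from 263 and 272 to 114 and 116 (-1.11 ± 0.19). As for every called probe set, HEL and unstimulated arrays were apart for all 5. Myeloid cells also make Ccl3, Ccl4 and Tnf, and the summed myeloid markers were 4831 and 27194 without and 12950 and 10714 with HEL. The myeloid markers Cd14 (90.3 and 191 against 1005 and 212) and Il1b (7.2 and 275 against 693 and 106) were highest on the first HEL array. The part of such cells in these changes was not tested. Ccl4 passed with any IgMG array left out, but Ccl3 did not without the first unstimulated (adjusted p = 0.0895) or either HEL array (0.139 and 0.213), nor did Tnf, Il16 or Il12a without either HEL array.

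On the cell surface the rise of Cd83 stood out. Cd83, a molecule that stabilises MHC class II and CD86 on activated B cells, had signals of 329.6 and 231 without HEL and 4093 and 3911 with HEL, a log2 change of 3.78 ± 0.28 (adjusted p = 2.38e-04), although a second, dimmer probe set did not pass. Plaur, the urokinase receptor, went from 174 and 102 to 307 and 442 (1.36 ± 0.28), and these were the 2 rises among 17 activation molecules. Cd86, the ligand of CD28, had signals of 61.2, 177, 344 and 216 (1.24 ± 0.41, adjusted p = 0.117), so that the HEL arrays were above both others without passing the test. Tnfrsf18, the TNF receptor family member also called GITR, went from 219 and 166 to 64.6 and 56.7 (-1.43 ± 0.21, adjusted p = 0.00695), the 1 fall of the list. Cd83 passed with any IgMG array left out, and Plaur did not pass without the second unstimulated (adjusted p = 0.0851) or either HEL array.

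Receptors for cytokines and for positioning changed singly. Among 17 cytokine receptors 1 rose and 2 fell (5.88% and 11.8%, against 3.1% and 2.29% of all probe sets), with a median of -0.32. Il1r1, the signalling interleukin 1 receptor, went from 12.2 and 15.4 to 78.2 and 81.1 (1.68 ± 0.28, adjusted p = 0.0139). Il10ra, the ligand-binding chain of the interleukin 10 receptor, went from 338 and 207 to 89.3 and 45.2 (-1.81 ± 0.33, adjusted p = 0.0191), and Il17ra from 620.5 and 478 to 278 and 238 (-1.04 ± 0.19), with a second probe set not past the threshold. Il10ra passed without the first HEL array, and 0 of the list without the second. Among 18 homing genes 1 rose and 2 fell (5.56% and 11.1%). Cxcr4, the receptor for Cxcl12, went from 132 and 174 to 522 and 408 (1.51 ± 0.19, adjusted p = 0.00405) and passed with any IgMG array left out. S1pr4, a sphingosine-1-phosphate receptor of lymphocytes, went from 496 and 349 to 138 and 90.3 (-1.75 ± 0.27), and the gut-homing integrin gene Itgb7 from 1574 and 1342 to 829.7 and 809 (-0.81 ± 0.14, a second probe set not past the threshold). Without the second HEL array neither passed. Cxcr5, which guides B cells into follicles, and S1pr1, which lets them leave the tissue, had overlapping groups (0.07 ± 0.22 and -0.11 ± 0.24), and Ccr7 was higher on both HEL arrays without passing (0.80 ± 0.27, adjusted p = 0.13).

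Transcription factors of B cell fate gave 6 rises and 2 falls among 29 tested. Irf4, which drives activated B cells towards plasma cells in a dose-dependent way, had signals of 489 and 419 without HEL and 3298 and 2894 with HEL (2.73 ± 0.17, adjusted p = 1.07e-04). Gfi1, a zinc finger repressor, went from 4.9 and 30.4 to 379.7 and 472 (3.82 ± 0.36), and Ahr, the aryl hydrocarbon receptor, from 1.2 and 16 to 133 and 152 (2.75 ± 0.32). Both started near the dim end of the array, where the added offset understates the change. Id3, which blocks the E proteins, went from 478 and 462 to 120.4 and 143 (-1.72 ± 0.22, adjusted p = 0.004). These 4 passed with any IgMG array left out. Runx1 went from 11.9 and 77.0 to 186 and 172 (1.94 ± 0.46, adjusted p = 0.0461). Its log2 change was 1.07 without the first unstimulated array and 2.80 without the second, and its adjusted p was 0.186 and 0.224 without the first and the second HEL array. Pax5, the factor that keeps B cell identity, did not pass (-0.71 ± 0.22, adjusted p = 0.102; its second probe set had the opposite sign), nor did the germinal centre repressor Bcl6 (0.24 ± 0.24). Prdm1, the master factor of plasma cells, was too dim to be tested, at 13.2, 17.8, 32.3 and 13.5.

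Genes linked to the resting state had a median log2 change of -0.33 over 26 tested. They gave 2 rises and 2 falls (7.69% each, against 3.1% and 2.29% of all probe sets). Cdkn2d, an inhibitor of cyclin D kinases, went from 375 and 470.3 to 157 and 139 (-1.41 ± 0.28, adjusted p = 0.0248). Txnip, which restrains glucose uptake, went from 1056 and 1018 to 512 and 443 (-1.10 ± 0.16, adjusted p = 0.00804), though a second probe set had the opposite sign. Klf2, a factor of quiescent recirculating lymphocytes, had signals of 1011, 773, 515 and 426, with HEL below and no call (-0.89 ± 0.38, adjusted p = 0.207). Irs2, an adaptor of insulin and cytokine receptors and a known FoxO target, went up instead, from 11.3 and 19.5 to 181 and 205 (2.75 ± 0.24). The antiproliferative gene Btg1 went from 1741 and 1768 to 2771 and 2723 (0.64 ± 0.14, adjusted p = 0.0305). Irs2 and Txnip passed without the first HEL array, and Irs2 alone without the second.

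Regulators of mRNA decay rose as a small set: 4 of 16 tested, with 0 falls and a median of 0.44. Zfp36, which binds AU-rich elements of cytokine mRNAs, went from 689 and 639 to 1909 and 1755 (1.44 ± 0.17, adjusted p = 0.00278), and its paralogue Zfp36l1 from 1018 and 1220.4 to 3182 and 2297 (1.27 ± 0.21). Cnot8, a deadenylase of the CCR4-NOT complex, went from 128 and 154 to 315 and 389 (1.23 ± 0.27, adjusted p = 0.0388). The fourth was Btg1. All HEL arrays lay above all unstimulated ones for these genes, as for every probe set that rose. Without the first HEL array 1 rose, and without the second 2, Zfp36 each time.

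The largest number of rises in a list was in ribosome biogenesis, the nucleolar pathway that makes ribosomal subunits. Of 59 genes tested 16 rose and 0 fell, and in 39 both HEL arrays lay above both unstimulated arrays, which was so for 23.7% of all probe sets tested. The median log2 change was 0.53. Gnl3, nucleostemin, went from 132 and 157 to 775 and 858 (2.38 ± 0.21, adjusted p = 6.33e-04). Tsr1, a maturation factor of the small subunit, went from 349 and 304 to 1014 and 1233 (1.73 ± 0.19, adjusted p = 0.00191). The core proteins of small nucleolar RNA particles Gar1 (580 and 449 against 1386 and 1629; 1.53 ± 0.28) and Nop58 (92.3 and 88.6 against 266 and 291; 1.47 ± 0.18) rose by like amounts, as did the large-subunit factor Rrs1 (1.44 ± 0.19). The log2 change of Gar1 ranged from 0.65 to 1.71 across the alternative settings, which include averaging of probe sets. With each IgMG array left out in turn it was 1.35 to 1.71. Nucleolin, Ncl, was bright before HEL at 1201 and 929.7 and rose to 1947 and 1890.3 (0.85 ± 0.17). Without the first HEL array 5 of the list rose and without the second 2, Gnl3 and Tsr1, while the median was 0.65 and 0.50. Ribosomal proteins themselves gave 0 rises and 0 falls among 26 tested. Rpl41 and Rps28, the brightest, had log2 changes of 0.46 ± 0.13 (adjusted p = 0.0803) and 0.40 ± 0.13 (adjusted p = 0.108).

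Genes of translation and of protein folding also rose. Of 36 translation factors 4 rose and 0 fell. Eif1a, an initiation factor, went from 152 and 161 to 456 and 487 (1.50 ± 0.16), and the release factor gene Etf1 from 378 and 349.8 to 1009 and 978 (1.41 ± 0.14, adjusted p = 0.00118). Both passed with any IgMG array left out. Eif2s2 (1.30 ± 0.24, a second probe set not past the threshold) and Abce1, which recycles ribosomes (0.70 ± 0.16, adjusted p = 0.041), were the others. Of 20 genes for aminoacyl-tRNA synthetases and their scaffold, Aimp2 (0.90 ± 0.16) and Iars (0.71 ± 0.16) rose and Vars fell, from 874 and 776 to 396 and 411 (-1.0 ± 0.18, adjusted p = 0.0191), and without either HEL array 0 passed.

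Heat shock chaperones gave 8 rises and 0 falls among 23 tested, with a median of 0.53. Hsph1, whose promoter is shown above, went from 407 and 436 to 1079 and 1651 (1.63 ± 0.22, adjusted p = 0.0047). Hsp90aa1 went from 1067 and 1146 to 2479.9 and 2763 (1.23 ± 0.14, adjusted p = 0.00205), the HSP70 gene Hspa8 from 889.9 and 1493 to 2667 and 2683 (1.20 ± 0.22), its cochaperone Dnaja1 from 556 and 645 to 1554 and 1583 (1.37 ± 0.19), and St13, which links HSP70 and HSP90, from 192 and 241 to 463 and 603 (1.24 ± 0.20, a second probe set not past the threshold). HEL arrays were above unstimulated arrays in each, as for every probe set that rose. Across the alternative settings, which include averaging of probe sets, the log2 change of Hsp90aa1 ranged from 0.53 to 1.31, and it lost its call in 1 of them. With each IgMG array left out in turn it was 1.15 to 1.31. Without the first HEL array 3 of the list rose, and without the second 1, Hsp90aa1. In other compartments the mitochondrial chaperones Hspd1 (1.55 ± 0.29, a second probe set not past the threshold) and Hspa9 (1.10 ± 0.18), the cytosolic chaperonin subunit Cct6a (1.07 ± 0.23), and the chaperone of the endoplasmic reticulum Hspa5, from 677 and 928 to 2076 and 2291 (1.44 ± 0.21, adjusted p = 0.00759), also rose. Of 28 genes of endoplasmic reticulum stress 2 rose, Hspa5 and the stress factor Ddit3 (1.20 ± 0.20), and 1 fell, the stress kinase gene Eif2ak3, from 283 and 324 to 115 and 109.6 (-1.31 ± 0.17, adjusted p = 0.00434). None of Hspd1, Hspa9, Cct6a, Hspa5 and Ddit3 passed without either HEL array, and Eif2ak3 passed without the first but not the second.

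Of 21 genes of mitochondrial protein import 3 rose and 0 fell, with Timm8a1, a small chaperone of the intermembrane space, going from 91.4 and 86.0 to 325 and 432 (1.90 ± 0.19) and Timm23, the channel of the inner membrane, from 580.0 and 569 to 943 and 997 (0.74 ± 0.14, adjusted p = 0.0229). Timm8a1 passed with any IgMG array left out. The import receptor gene Kpna2 (0.97 ± 0.19) and the GTPase gene Ran (2737 and 2997 against 4639.5 and 4805; 0.72 ± 0.13) were the 2 rises among 25 genes of nuclear transport. Respiratory chain and ATP synthase subunits stood at the background: of 65 tested, Atp5md rose (0.99 ± 0.24, adjusted p = 0.0475) and Ndufa8 fell (-0.92 ± 0.17, adjusted p = 0.0197). Without either HEL array 0 of the nuclear transport and respiratory genes passed.

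**Figure D3:**
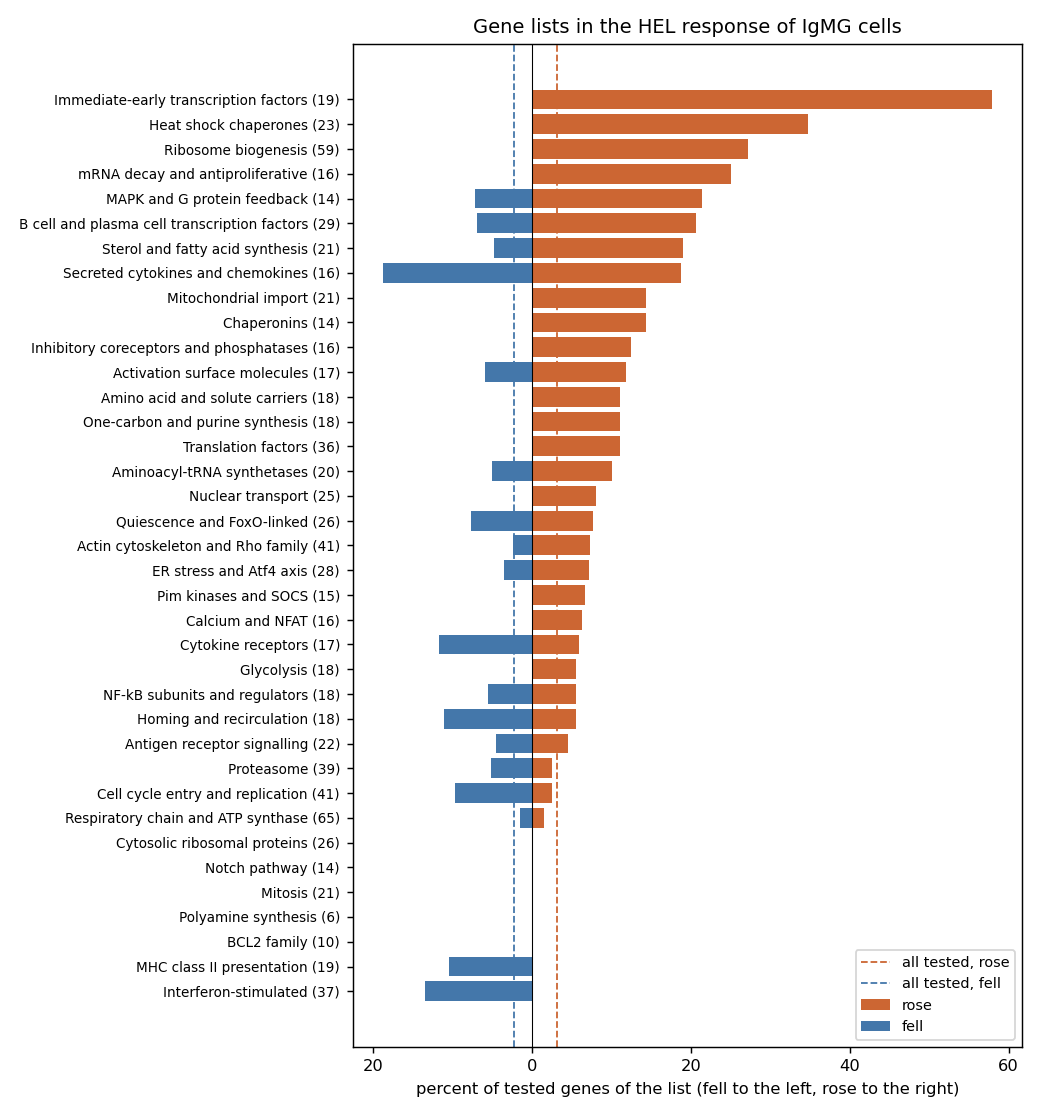
Percent of the tested genes of each pathway list (number tested in brackets) that rose (right, orange) or fell (left, blue) with HEL in IgMG cells; dashed lines give the share of all 7453 tested probe sets, 3.1% and 2.29%. Immediate-early transcription factors, 11 of 19, reach the highest share of rises, and secreted cytokines and chemokines, 3 of 16, the highest share of falls.

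Lipid metabolism showed rises in sterol genes beside 1 deep fall. Scd2, a fatty acid desaturase, went from 947 and 939 to 208 and 268 (-1.93 ± 0.25, adjusted p = 0.00398), and passed with any IgMG array left out. Among the same 21 genes 4 rose: the sterol synthesis enzymes Sc5d (58.0 and 60.7 against 158 and 163; 1.23 ± 0.19) and Idi1 (88.7 and 112 against 228 and 219; 1.05 ± 0.23), the elongase Elovl5 (0.68 ± 0.14) and Abca1, which exports cholesterol (429 and 589 against 1143 and 1390.4; 1.30 ± 0.29, adjusted p = 0.0398, a second probe set not past the threshold). Without either HEL array 0 of them rose. Of 18 glycolytic genes 1 rose, Pgam1, from 341 and 353 to 755 and 789 (1.12 ± 0.15, adjusted p = 0.0047, no call without the second HEL array), and Ldha did not pass (0.57 ± 0.18, adjusted p = 0.108). Shmt1, of the folate cycle, went from 34.4 and 32.4 to 162 and 121 (1.66 ± 0.24, no call without the first HEL array), and with Nme1 (0.95 ± 0.22, a second probe set not past the threshold) made 2 rises among 18 genes of one-carbon and purine synthesis. The amino acid transporter Slc7a5 (1.02 ± 0.23) and the phosphate transporter Slc20a1 (0.87 ± 0.18) were the 2 rises among 18 carriers, and without either HEL array 0 carriers passed. Odc1, the first enzyme of polyamine synthesis, did not pass (0.52 ± 0.20, adjusted p = 0.159).

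Cell cycle genes showed more falls than rises. Of 41 genes of cycle entry and replication 1 rose and 4 fell, with a median of -0.19. Pcna, the sliding clamp of DNA polymerases, went from 598 and 706 to 1431 and 1712 (1.25 ± 0.18, adjusted p = 0.00673). Its partners in replication went the other way: the polymerase subunit Pold1 from 695 and 486 to 249 and 231 (-1.22 ± 0.22), the single-strand binding protein gene Rpa1 from 624 and 477 to 245 and 269 (-1.04 ± 0.19), and the clamp loader gene Rfc1 from 409.9 and 273 to 158 and 151 (-1.04 ± 0.22), as did Ccne1, cyclin E1 (-0.88 ± 0.21, adjusted p = 0.0461). The HEL arrays of these 4 lay below the unstimulated ones, yet 0 of the list fell without the first unstimulated or either HEL array, and 2 fell with median centring. Pcna passed without the first HEL array but not the second (adjusted p = 0.103). Across the alternative settings the log2 change of Pold1 ranged from -1.48 to -0.72 and that of Rfc1 from -1.32 to -0.56. The cyclin Ccnd2 (0.38 ± 0.40) and the kinase gene Cdk4 (0.21 ± 0.17, a second probe set with the opposite sign) did not pass. Of 21 mitotic genes 0 rose and 0 fell.

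Falls were commoner than rises among interferon-stimulated and antigen presentation genes. Of 37 interferon-stimulated genes 5 fell and 0 rose, with a median of -0.38. The named ones were Usp18, a brake on interferon signalling (207 and 166 against 80.4 and 97.7; -0.94 ± 0.19, adjusted p = 0.0281), the immunity-related GTPases Ifi47 (356 and 320.4 against 219 and 138; -0.90 ± 0.21, adjusted p = 0.0471, and -0.59 without the second HEL array) and Igtp (244 and 212 against 109 and 124; -0.88 ± 0.18), and the immunoproteasome subunits Psmb9 (-0.76 ± 0.18) and Psmb8 (-0.60 ± 0.13). As for every probe set that fell, all 4 arrays were in order for each, but these were small changes at the edge of the threshold. With median centring 0 of 37 fell, without the first unstimulated array 0, without the second 3, without the first HEL array 1 and without the second 0, while the median of the list stayed between -0.49 and -0.26. Of 19 MHC class II genes 2 fell, H2-DMa, an editor of peptide loading, from 2981 and 2711 to 1802 and 1680.2 (-0.70 ± 0.13, adjusted p = 0.022, a second probe set not past the threshold), and H2-Oa, which restrains that editor, from 1706 and 1558 to 1149.5 and 879 (-0.69 ± 0.17, adjusted p = 0.0491). Without either HEL array 0 of them fell.

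The remaining genes among the 15 largest rises and falls belong to several processes. Plk2, a polo-like kinase induced by stress and growth signals, went from 69.3 and 45.4 to 796 and 838 (3.52 ± 0.21), and Marcksl1, a protein kinase C substrate that binds actin, from 99.6 and 83.3 to 907 and 922 (3.12 ± 0.22). With Marcks (1.43 ± 0.33, adjusted p = 0.0412; 0.92 without the first unstimulated array) and Ezr, ezrin, which ties the membrane to actin (878 and 746 against 1447 and 1527; 0.86 ± 0.14), Marcksl1 made 3 rises among 41 genes of the actin cytoskeleton, and Rhoh fell (-0.88 ± 0.17). Of these 4 only Marcksl1 passed without either HEL array. Smpd2, a neutral sphingomyelinase, had the deepest fall, from 134 and 129 to 26.9 and 10.9 (-2.12 ± 0.37, adjusted p = 0.0162). Bmyc, a short relative of Myc, went from 572 and 389.9 to 127 and 92.5 (-1.97 ± 0.24, adjusted p = 0.00294), the opposite of Myc itself. The thromboxane receptor gene Tbxa2r (141 and 81.3 against 17.2 and 21.1; -1.82 ± 0.30), the Rab regulator Rabgap1l (549.6 and 499 against 163 and 117; -1.81 ± 0.29) and the metalloproteinase gene Adam19 (454 and 299.7 against 134 and 92.4; -1.60 ± 0.25) also fell. So did Fam189b, Pmf1, Rex1bd, Chmp6 and Polr2e, by -1.80 to -1.58 on the log2 scale. Across the alternative settings the log2 change of Rabgap1l ranged from -2.02 to -0.83.

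The 15 largest rises passed the threshold in each of the other settings in which they were tested, with Ahr too dim for the test of the brightest 40 percent, and with adjusted p-values of 1.75e-05 to 0.00277 with all arrays. Of the 15 largest falls, Bmyc, Id3 and Scd2 did. The others lost the call in at least 1 setting: 8 of the 15 falls passed without the first HEL array, 3 without the second, 13 without the first unstimulated array (all but Il10ra and Rex1bd) and 11 without the second (all but Chmp6, Fam189b, Pmf1 and Rex1bd).

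Survival genes gave no call. Of 10 genes of the BCL2 family 0 rose and 0 fell. Bcl2, the founding survival factor, had signals of 209 and 320.2 without HEL and 117 and 90.6 with HEL (-1.21 ± 0.36, adjusted p = 0.086), Mcl1 of 1564, 1566, 1239.5 and 1274 (-0.31 ± 0.14, adjusted p = 0.231), and Bcl2l1 had overlapping groups (-0.05 ± 0.27). For Bcl2 and Mcl1 both HEL arrays lay below both unstimulated arrays, as they did for 29.4% of all probe sets tested. Of 14 Notch pathway genes 0 passed, and Dtx1, a Notch target of marginal zone B cells, had a log2 change of -0.25 ± 0.27.

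Markers of other cells gave no call with HEL: of 11 marker lists, the 2 genes that passed were Blk and Cd79b of the B cell list. The granzyme gene Gzma of NK cells had signals of 80.5, 1227, 209 and 151, and the calprotectin gene S100a8 of neutrophils of 371, 5339, 871 and 2019, with overlapping groups in both. The median log2 change of NK markers was -0.55 with all arrays, -1.45 without the first unstimulated array and 0.63 without the second, and that of myeloid markers -0.12, -0.69 and 0.84. Neither list has a direction that holds across arrays. The haemoglobin gene Hba-a1 was bright on every array, from 9595 to 16616 on the IgMG arrays and from 10341 to 12305 on the IgM arrays. T cell markers summed to 775, 2081, 815 and 716, against 373 to 487 on the IgM arrays. Ccl5 and Zap70 made up most of the sum on each IgMG array. Cd3d, Cd3e and Cd3g reached at most 16 on the IgMG arrays and 16.2 on the IgM arrays.

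**Figure D4:**
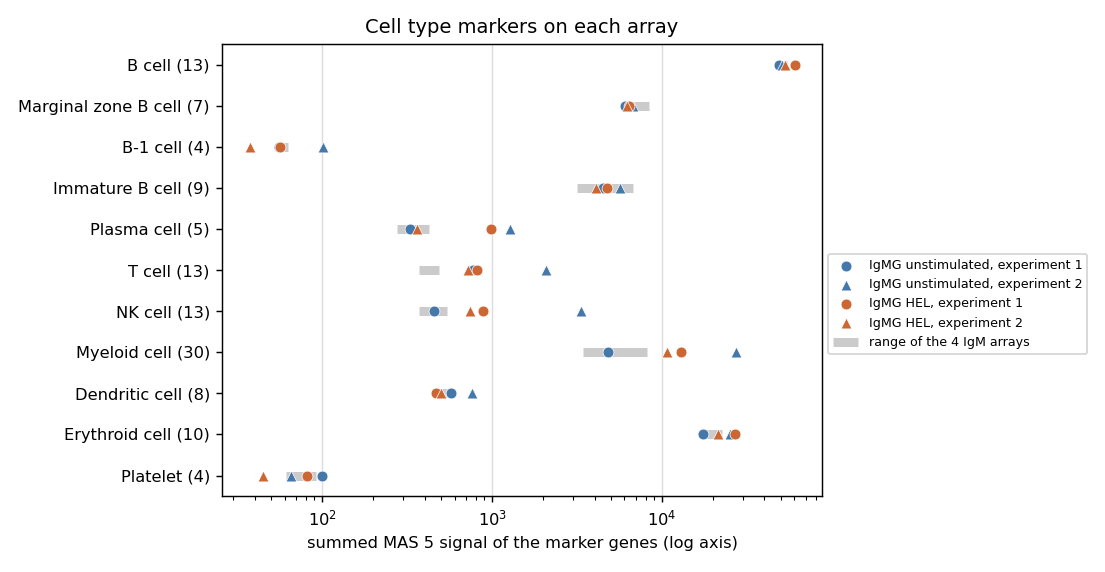
Summed MAS 5 signal on a log axis of the marker genes of each cell type (number on the array in brackets), 1 point per IgMG array, with the range of the 4 IgM arrays in grey. NK markers reach 3331 and myeloid markers 27194 on the second unstimulated IgMG array, while the B cell sums of the IgMG arrays lie between 48721 and 60114.

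The IgM arrays allow the response of IgMG cells to be set beside that of IgM cells. The responses come from separate arrays, but their tests share the same estimate of the spread for each probe set. A small spread favours a call in both, so the shares of common calls below do not come from independent tests. Of the 231 probe sets that rose in IgMG cells 180 also rose in IgM cells (77.9%, where 6.7% of all tested rose), and of the 171 that fell 114 also fell (66.7%, where 7.27% fell), and 0 were called in opposite directions. The 15 largest rises of IgMG cells all passed in IgM cells, and 12 of them were smaller in IgMG cells. Plk2 reached 796 and 838 with HEL in IgMG and 2131 and 2717 in IgM cells, from like levels without HEL (60.8 and 56.1 in IgM), which gives a difference of log2 responses of -1.50 ± 0.29. Nr4a1 reached 1601 and 1276 against 3120.5 and 3023 (-1.73 ± 0.50), and Irf4 had a difference of -0.99 ± 0.24. Cd83, Myc, Crem and Dusp2 had differences of 0.09 ± 0.40, -0.15 ± 0.31, 0.04 ± 0.36 and 0.12 ± 0.31. Of the 15 largest falls 10 passed in IgM cells, and 8 were smaller in IgMG cells. Receptor and number of pooled mice cannot be told apart in this comparison.

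No difference between the responses passed the test: 0 of 7453 probe sets (0%) had an adjusted p under 0.05 in limma, and 750 had an unadjusted p under 0.05. Without 1 array, 13 passed when the first unstimulated IgMG array was left out, 6 when the second was, 2 without the first HEL and 1 without the first unstimulated IgM array. The smallest adjusted p was 0.102, for Ccl4, which reached 205 and 228 with HEL in IgMG and 1472 and 1704 in IgM cells (difference of log2 responses -3.28 ± 0.40), and for Sema4b, whose other probe sets had the opposite sign. Klf2 stood at 515 and 426 with HEL in IgMG but 83.9 and 22.2 in IgM cells (3.16 ± 0.54, adjusted p = 0.414). Dusp6, a phosphatase of ERK, stood at 275 and 357 against 156 and 181 (1.42 ± 0.25, adjusted p = 0.414).

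By the same adjusted p, 86 genes passed the threshold in IgMG and not in IgM cells, which does not show a difference: the lowest adjusted p of the difference among them was 0.414. Runx1 had the widest gap of those named, with signals of 11.9 and 77.0 without and 186 and 172 with HEL in IgMG cells, and of 149 and 180.3 without and 76.2 and 91.2 with HEL in IgM cells (difference 2.79 ± 0.65). Its levels with HEL lay closer between the receptors than its levels without, since the unstimulated IgMG arrays were low. Tbxa2r (-1.22 ± 0.42), Pmf1 (-1.54 ± 0.48) and Chmp6 (-1.69 ± 0.49) had deeper falls in IgMG cells, with Chmp6 at 119.7 and 187 against 52.6 and 23.2 in IgMG and 129 and 80.1 against 123 and 87.0 in IgM cells. Ezr had a difference of 0.72 ± 0.20, Slc7a5 of 0.70 ± 0.33 and Hspd1 of 0.74 ± 0.40.

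**Figure D5:**
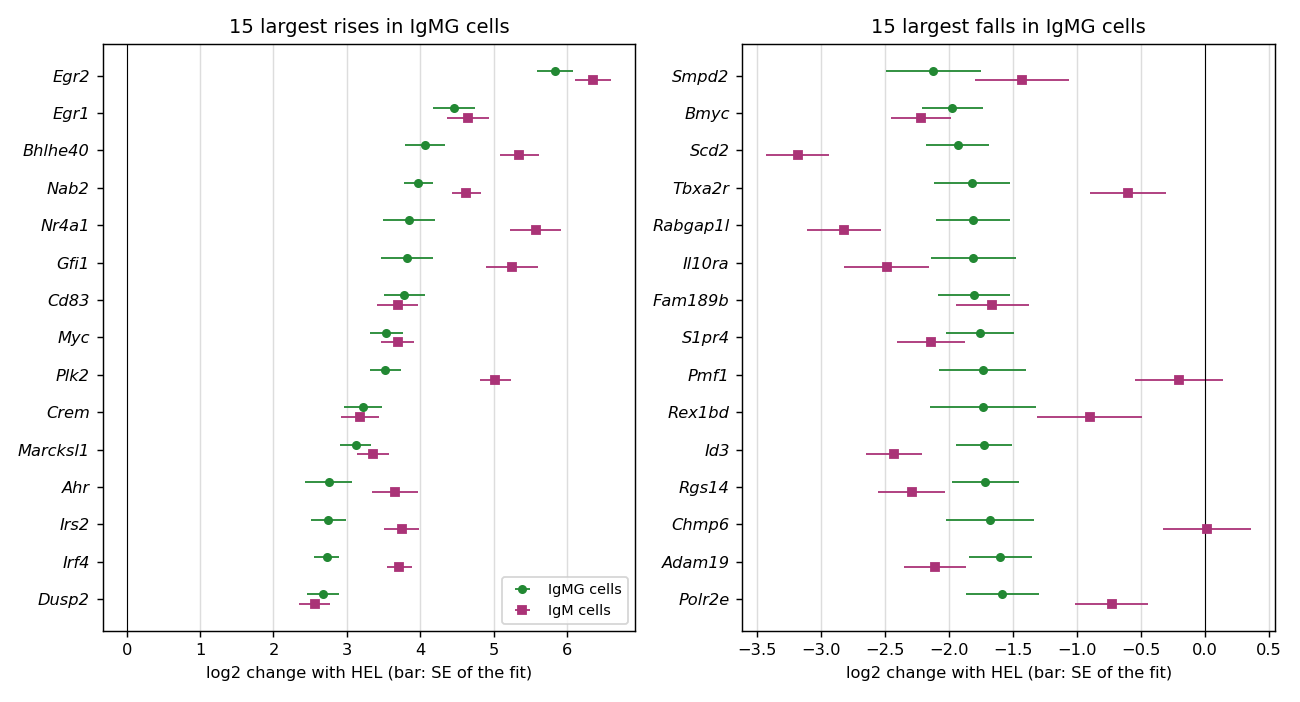
Log2 change with HEL of the 15 largest rises (left) and 15 largest falls (right) of IgMG cells, in IgMG cells (green circles) and IgM cells (purple squares); bars are standard errors of the fit. Of the rises 12 lie lower in IgMG cells, with Plk2 at 3.52 against 5.02 and Myc at 3.54 against 3.69, and none of the 30 differences passed the test.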

How the data were processed

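RNA of the 8 cell pools was hybridised to single-colour short-oligonucleotide arrays. The authors deposited 1 linear intensity per probe set and array, made with MAS 5 according to the submitters' processing notes; the sources used here do not give further settings or a genome build. From 12488 probe sets 66 controls were left out. Signals were analysed as log2(intensity + 16), which understates changes of dim genes, and the brightest 60% by mean log2 value over all arrays, 7453 of 12422, were tested two-sided with limma 3.58.1 in R 4.3.3. All 8 arrays entered the fit, with each group's mean as a coefficient, eBayes with trend (4 residual and 4.87 prior degrees of freedom) and Benjamini-Hochberg adjustment at 0.05. The difference of the responses was tested in the same fit.

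Symbols came from the platform annotation: 10833 probe sets had 1, 396 several (not named) and 1193 none, and 0 changed on updating by gene identifier. A gene is given by its brightest probe set. Named genes were the 15 largest rises and falls with groups that do not overlap, up to 5 called members per list (the 2 brightest where fewer than 2 passed), 50 further genes and the 5 smallest p-values of the difference. The 37 pathway and 11 marker lists and these rules were chosen with earlier results of these data known. Lyn, Egr3, Nfkb1, Cd69 and Foxo1 had no probe set with 1 symbol. Lists are described by counts and medians, with no test.

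Arrays of the same experiment number did not deviate together (r = -0.0856 in IgMG and -0.0341 in IgM cells, over probe sets), so the block is an alternative only. Other alternatives were offsets, scalings, filters, no trend, fewer arrays in the fit, leaving out each array, and averaging of probe sets. The code was tested on simulated data. Plots were made in Python 3.11.15 (matplotlib 3.10.9).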

Additional observations from a re-analysis of the deposited data

How the results depend on the processing

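The count of probe sets that rose with HEL in IgMG cells, 231, stayed within 1.5 times of that under an offset of 1 or 32, both scalings, no filter, the brightest 40 percent, the replicate block and averaged probe sets. It was 144 without a trend and 112 with the 4 IgMG arrays alone. The count that fell, 171, was 97 with median centring, 98 with no filter, 87 without a trend, 51 with the 4 IgMG arrays alone and 100 with the experiment number as a replicate block (rises 173), although the numbers do not pair the arrays. Leaving out each of the 8 arrays in turn gave 48 to 212 rises, 10 to 161 falls and 0 to 13 differences between the receptors; with an offset of 32 there was 1 difference, against 0. A fit that leaves out an array assumes that the lone array of its group varies like the other groups, and it rests on fewer samples. The cause of the other changes was not tested. No named gene that passed the threshold changed sign under any alternative that tested it. Precision is limited by the number of arrays, and dim probe sets such as Ahr and Cd5 without HEL lie near the offset.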

Other observations

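Some genes of interest in B cell activation could not be followed. Rel, an NF-kB subunit, had signals of 5.4 and 3.5 without HEL and 18.9 and 21.8 with HEL in IgMG cells, with HEL above on both arrays but below the brightness needed for a test. Cd44, an adhesion receptor of activated lymphocytes, had overlapping groups at 7.3, 28.9, 16.7 and 6.7, also untested. Jchain, the joining chain of secreted antibody and a plasma cell gene, stood at 55.8, 548, 66.6 and 38.0, with its high value on the second unstimulated IgMG array, and Slpi at 232, 675, 855 and 257. Vcam1 (226, 548, 1374 and 454) and the complement gene C1qa (153, 353, 550.3 and 211), both markers of the myeloid list, were highest on the first HEL array, while 19 of the 30 were highest on the second unstimulated array.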
